A study of Mus musculus with 21 samples.

Results

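Thymocytes of mice carrying the OT-2 T cell receptor transgene were compared with wild-type thymocytes, using 9 of the series' 21 Affymetrix Mouse Gene 1.0 ST arrays. The OT-2 arrays were the 3 titled with the transgene and no peptide, and the controls were wild-type arrays 1 to 3 and wild-type arrays 4 to 6, kept as 2 sets because their deposited values differ in scale. A change was counted only where it held, that is, where it passed the test against each set in the same direction. All 9 arrays carried total RNA from thymocytes sorted by flow cytometry for both CD4 and CD8, from C57 Bl/6 mice aged 3 to 6 weeks, and the labels name no treatment for them. The design text counts each array as a separate biological replicate and assigns the comparison of OT-2 with wild type to positive thymic selection. The labels give neither the promoter and integration site of the transgene nor the Rag genotype of its carriers, and they do not say whether mice were pooled.

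OT-2 is a rearranged pair of receptor alpha and beta chains that recognises an ovalbumin peptide on MHC class II and directs cells to the CD4 lineage. In wild-type thymocytes a beta chain is assembled first and signals, together with the product of Ptcra, at the CD4 and CD8 double-negative stage, where Notch signals are also needed. The alpha chain is then rearranged by the RAG recombinase at the double-positive stage, and cells whose receptor binds self peptides on MHC with moderate strength are positively selected. A transgene that supplies a finished beta chain is known to limit rearrangement of the cell's own beta genes, a process called allelic exclusion.

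The values are log2 RMA signals per probe set, and a change is the OT-2 mean minus the wild-type mean on that scale, with the standard error (SE) of the limma fit and n = 3 arrays per group. The median of an array lay between 6.01 and 6.24, and the correlation across genes between arrays of a group was 0.987 to 0.997. The wild-type sets differed from each other in 17688 of 28923 probe sets (61.2%). By their exactly equal values the OT-2 arrays were taken as a normalization block apart from both. Their SD across probe sets (2.23 to 2.26) lay below that of wild-type 4 to 6 (2.39 to 2.42). It was close to that of wild-type 1 to 3 (2.14 to 2.22), so scale alone hardly separates OT-2 from that set. How the OT-2 arrays were normalized is not stated, and block and group cannot be told apart. OT-2 array 3 stood apart from its group in a small number of probe sets. Of 28923, 34 lay in array 3 over 2-fold above both other OT-2 arrays, against 1 for array 1 and 9 for array 2. Its correlation with them across all probe sets was 0.9957, equal to the lowest of arrays 1 and 2. Over 2-fold below both others lay 11 probe sets in array 1, 0 in array 2 and 2 in array 3. Results that rest on it are given with and without it. Gene names exist here for 2111 of the probe sets, all of them listed by the authors as changed in at least 1 comparison of these samples, so the named genes are not independent evidence of a direction. The shares of a list that rose or fell, given below beside those of all named genes, carry the same limit.

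Against wild-type 1 to 3, 9850 probe sets passed at an adjusted p under 0.05 (34.1%), and against wild-type 4 to 6, 12378 passed (42.8%). Of these, 2229 held against both sets (7.71% of all tested), 1173 of them higher in OT-2 (4.06%) and 1056 lower (3.65%). With each array centred on its median, 789 of the held changes were higher and 1509 lower, so the balance of rises and falls depends on the scaling. Almost as many probe sets, 2000 (6.91%), passed against both sets with opposite signs. Left-out arrays moved the count: 1359 held without OT-2 array 1, 1291 without OT-2 array 2 and 1855 without OT-2 array 3.

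Among named genes, 835 of 2111 held (39.6%), 362 higher (17.1%) and 473 lower (22.4%), and 74 passed with opposite signs (3.51%). Changes of at least 2-fold against both sets, a size chosen after seeing the data, were made by 54 probe sets upward (0.187% of all tested) and 32 downward (0.111%), and by 0 in opposite directions. In 84 of these 86 probe sets the 3 OT-2 values lay outside the range of all 6 wild-type values. All but 3 of the 86 held without OT-2 array 3. Of the 86 rows 3 repeat another of them, with the same values in all 9 arrays. The authors' deposited table for OT-2 lists 1236 of the probe sets tested, and 68.4% of them held in the direction it gives.

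**Figure D1:**
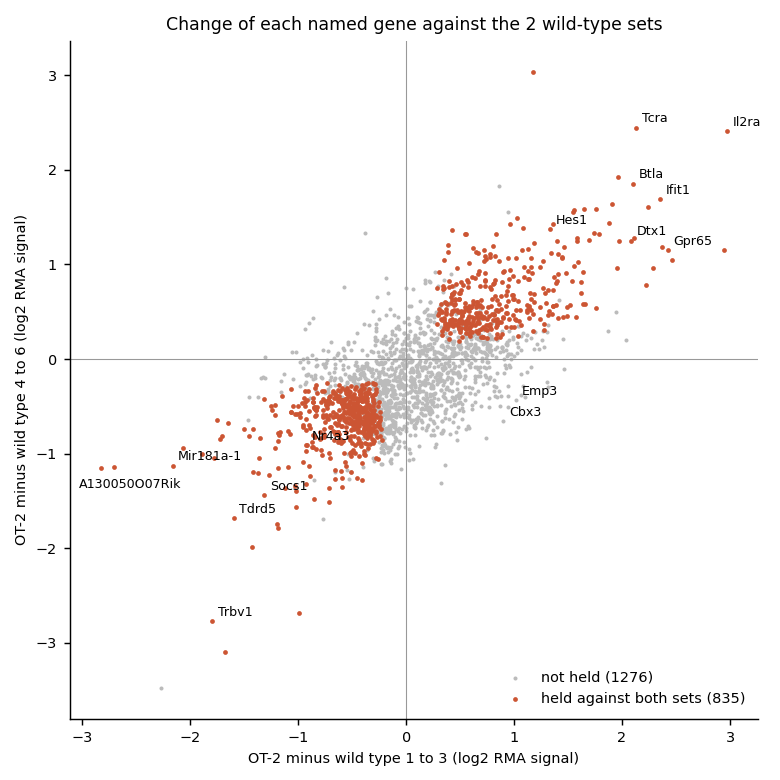
Each point is a named gene, placed by its OT-2 change in log2 RMA signal against wild-type arrays 1 to 3 (horizontal axis) and against wild-type arrays 4 to 6 (vertical axis). The 835 genes that held against both sets, orange, lie in the upper right and lower left, and the 1276 others, grey, include genes such as Emp3 and Cbx3 that passed with opposite signs.

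The transgene itself was looked for first, in the probe sets of receptor segments. Only probe sets that the authors list as changed in at least 1 comparison carry such a description here. The counts by chain are therefore not counts over all receptor probe sets of the array. The probe set that the file names Tcra, described there as an alpha chain transcript, read 9.31, 9.07 and 9.36 in wild-type 1 to 3, 8.84, 9.05 and 8.92 in wild-type 4 to 6, and 11.41, 11.36 and 11.38 in OT-2. The OT-2 arrays were all above every wild-type array and lay within a narrow range. The change was 2.13 ± 0.10 (SE) against wild-type 1 to 3 (limma, adjusted p = 4.7e-06) and 2.45 against wild-type 4 to 6 (limma, adjusted p = 1.13e-06). In the peptide-injected OT-2 arrays, which were taken to share a normalization block with wild-type 1 to 3, its mean was 11.6.

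Trbv1, a variable segment of the beta chain, read 10.19, 9.97 and 10.04 in wild-type 1 to 3, 11.12, 10.89 and 11.11 in wild-type 4 to 6, and 7.87, 7.88 and 9.07 in OT-2. All OT-2 values were lower than all wild-type values, with array 3 nearest to them. The fall was -1.80 ± 0.26 (SE; limma, adjusted p = 8.8e-04) and -2.77 (adjusted p = 1.25e-04), and without OT-2 array 3 the changes were -2.19 and -3.17. All 3 beta chain probe sets listed by the authors fell, and in all 3 OT-2 array 3 was above the other OT-2 arrays.

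Of 16 alpha chain probe sets listed by the authors, 2 of which copy the values of another, 5 rose, 2 fell and 9 did not hold. Without OT-2 array 3, 5 rose and 7 fell. Trav19, an alpha variable segment, read 7.36, 7.15 and 7.29, then 7.38, 6.96 and 7.08 in the wild-type sets, and 8.22, 8.35 and 8.04 in OT-2. Its OT-2 values were the 3 highest, with changes of 0.94 and 1.07. Trav21-dv12 rose by 0.98 and 0.68. Trav3-4 rose by 0.61 and 0.44, and did not hold on arrays centred on their medians, without OT-2 array 1 or 2, or without any of wild-type arrays 4 to 6. Trav10n moved the other way, with values of 7.02, 7.52 and 7.40, then 7.57, 7.56 and 7.53 in wild type, and 5.75, 5.84 and 6.97 in OT-2. Its OT-2 values were the lowest 3, array 3 lying just under wild type, and the changes were -1.13 and -1.37. Many alpha variable segments belong to families of near-identical members, and the signal of such probe sets may be shared between members. None of 3 gamma chain probe sets and 1 delta chain probe set held.

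**Figure D2:**
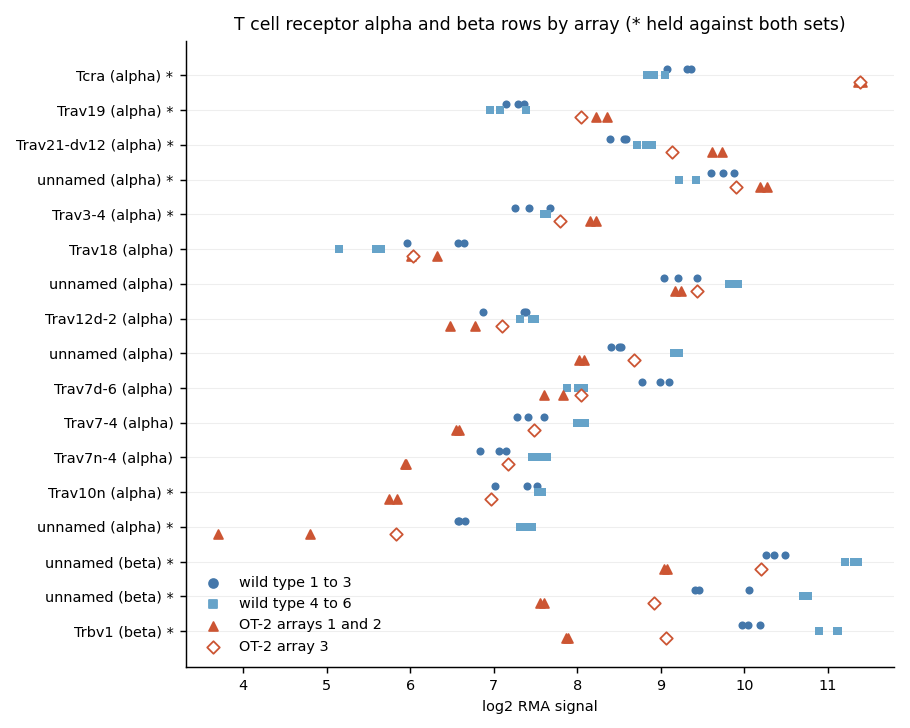
Log2 RMA signal (horizontal axis), in every array, of each alpha and beta chain probe set listed by the authors, without copies. Circles mark wild-type 1 to 3, squares wild-type 4 to 6, triangles OT-2 arrays 1 and 2 and an open diamond OT-2 array 3. An asterisk marks a change that held. Tcra is higher in all OT-2 arrays, the 3 beta chain probe sets are lower, and OT-2 array 3 lies above the other OT-2 arrays in all 3 of them.

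Among the other markers the label of double-positive thymocytes was checked with Rag1 and Cd4. Rag1, a subunit of the recombinase, read 13.25, 13.29 and 13.23 in wild-type 1 to 3, 13.61, 13.63 and 13.62 in wild-type 4 to 6, and 12.71, 12.77 and 13.12 in OT-2. All OT-2 values were lower, with changes of -0.39 and -0.75, and the gene did not hold without OT-2 array 1 or 2. Cd4, the coreceptor for MHC class II, read 11.58 to 11.83, 11.92 to 12.05 and 11.26 to 11.56 in the same order and fell by 0.37 and 0.62. It did not hold without OT-2 array 1, OT-2 array 2 or wild-type array 3. Cd8b1, a chain of the other coreceptor, changed by -0.21 and -0.46 and did not hold. Of the 7 named markers of double-positive thymocytes, 1 (Ptcra) rose (14.3%, beside 17.1% of all named genes) and 3 fell (42.9%, beside 22.4%). The falls numbered 1 without OT-2 array 1 or 2, 2 without wild-type array 3 or after quantile normalization, and 4 without OT-2 array 3. In bulk RNA, fewer cells of a type and less RNA per cell cannot be told apart.

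Markers of other cell types were few among the named genes. Those of B cells (Blk and Cd79b), dendritic cells (Irf8), thymic epithelium (Cldn4), gamma delta T and NK cells (Gzma), and macrophages and granulocytes (Itgam and Lyz1) all failed to hold, and 0 of the erythroid markers was named. Blk, a kinase of B cells, changed by 0.07 and 0.74, and Irf8 by 0.04 and 0.18. Cd79b changed by 0.77 and -0.08, Gzma by 0.94 and -0.29 and Cldn4 by 0.91 and -0.15, so these 3 turned sign between the wild-type sets. Their part in the results below was not tested.

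The only named marker of double-negative thymocytes among the genes with the largest held changes was Il2ra. Il2ra, the alpha chain of the interleukin 2 receptor and a marker of early thymocytes, read 6.74, 6.25 and 5.89 in wild-type 1 to 3, 6.48, 6.89 and 7.22 in wild-type 4 to 6, and 9.41, 9.40 and 9.00 in OT-2. The OT-2 values lay well above the wild-type range. The rise was 2.97 ± 0.23 (SE; limma, adjusted p = 5.63e-05) and 2.41 (adjusted p = 1.3e-04), and it held in all 9 fits that each left out an array.

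All 3 named genes of the Notch list rose (100%, beside 17.1% of all named genes), and these rises also held with any of the 9 arrays left out. Only these 3 of the 9 genes on the list carry a name here, and all 3 are in the authors' OT-2 table. Neither their direction nor their share is therefore independent evidence. Dtx1, a Notch target and ubiquitin ligase, read 7.00, 7.07 and 6.73 in wild-type 1 to 3, 7.57, 7.73 and 8.0 in wild-type 4 to 6, and 9.07, 9.22 and 8.76 in OT-2. Its groups did not overlap, and the changes were 2.08 and 1.25. Hes1, a repressor induced by Notch, read 5.75, 6.43 and 6.20, then 5.96, 6.01 and 6.28, and 7.54, 7.57 and 7.27 in OT-2. The wild-type sets overlapped for Hes1 and the OT-2 arrays were above both, by 1.33 and 1.37. Notch3, a receptor of the pathway, rose by 0.73 and 1.09.

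Ptcra, the gene of the surrogate alpha chain, read 7.91, 7.73 and 7.71 in wild-type 1 to 3, 8.89, 8.80 and 9.05 in wild-type 4 to 6, and 9.41, 9.51 and 9.16 in OT-2. It rose by 1.58 and 0.45, with OT-2 array 3 closest to the wild-type range. Spib, an Ets family transcription factor, read between 5.41 and 5.86 in all 6 wild-type arrays and 7.38, 7.52 and 6.75 in OT-2. It rose by 1.54 against wild-type 1 to 3 and 1.55 against wild-type 4 to 6. Ptcra is counted in the double-positive and pre-selection lists, and neither Ptcra nor Spib in the double-negative list. Myb, a transcription factor of early thymocytes, went down instead, by -0.34 and -0.81, and did not hold without OT-2 array 1 or 2. Of the 5 named markers of double-negative thymocytes, Il2ra, Dtx1 and Hes1 thus rose, Myb fell and Cd44 (0.13 and -0.27) did not hold. The rises were 60% of these markers (beside 17.1% of all named genes) and the fall 20% (beside 22.4%). Dtx1 and Hes1 are also counted in the Notch list, and 4 of the 5 markers are in the authors' OT-2 table.

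**Figure D3:**
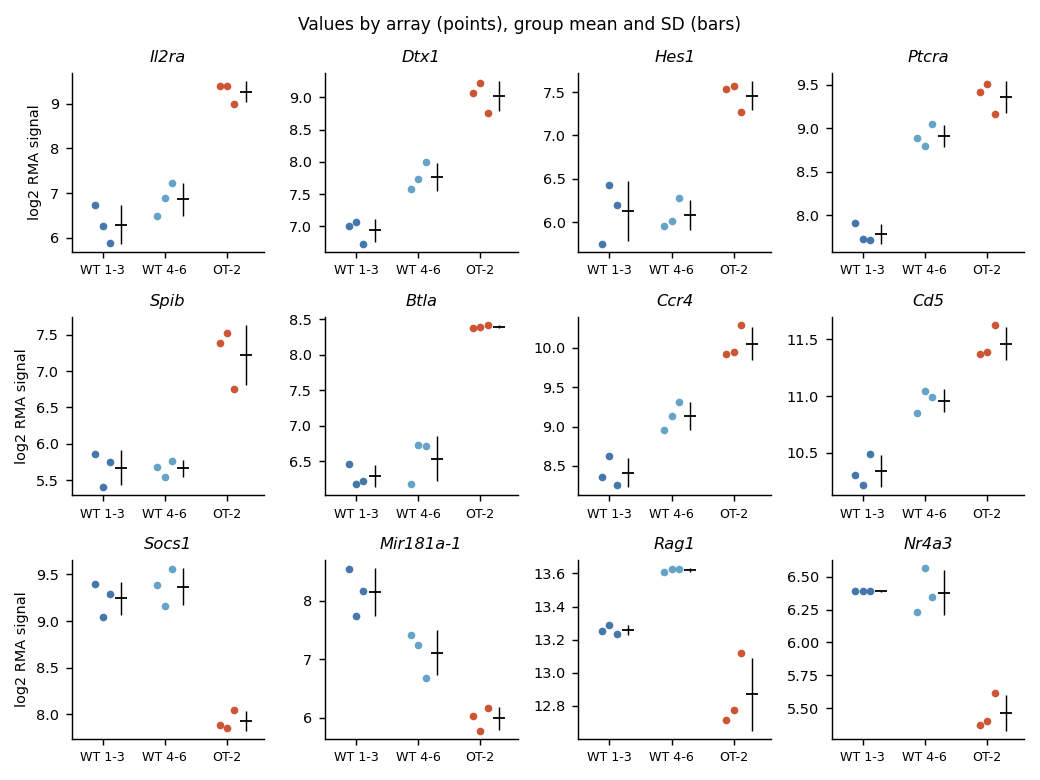
Log2 RMA signal of 12 genes in each array (points), with the group mean and SD (n = 3) to the right of each group; the vertical axes differ and do not start at 0. The OT-2 arrays lie above all 6 wild-type arrays for Il2ra, Dtx1, Hes1, Ptcra, Spib, Btla, Ccr4 and Cd5, and below them for Socs1, Mir181a-1, Rag1 and Nr4a3.

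Genes of the pre-selection stage were mostly lower. Of 15 named members, 9 fell (60.0%, beside 22.4% of all named genes), 1 (Ptcra) rose and 5 did not hold, with median changes of -0.44 and -0.66, beside medians of 0.0 and -0.23 over all named genes. The count of falls was 7 without OT-2 array 1 or 2. Tdrd5, a Tudor domain gene, read 10.10, 9.99 and 10.37 in wild-type 1 to 3, 10.30, 10.31 and 10.11 in wild-type 4 to 6, and 8.36, 8.55 and 8.76 in OT-2. The OT-2 arrays were all lower and the wild-type sets overlapped, with changes of -1.60 and -1.68. Slc6a19, an amino acid transporter, fell by 1.18 and 1.78 and Cacna1e, a calcium channel subunit, by 1.78 and 1.04. Arpp21, a marker of double-positive cells, fell by 0.56 and 0.66, and this change was lost after quantile normalization. Other falls were Smoc1 (-1.03 and -1.34), Ets2 (-0.44 and -0.88) and Mns1 (-0.53 and -0.33).

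Mir181a-1, the gene of a microRNA known to lower the threshold of receptor signalling in double-positive thymocytes, belongs to this list. Its mature products are shown because they carry the gene's function, although the probe set does not measure them apart from their precursor. They are taken from RefSeq (GRCm38.p6, chr1:137966468-137966490 and chr1:137966508-137966529, plus strand), with the seed, bases 2 to 8, in capitals.
mmu-miR-181a-5p: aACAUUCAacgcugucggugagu
mmu-miR-181a-1-3p: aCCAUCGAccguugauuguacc
The Mir181a-1 probe set read 8.55, 7.74 and 8.17 in wild-type 1 to 3, 7.41, 7.25 and 6.68 in wild-type 4 to 6, and 6.03, 5.78 and 6.16 in OT-2. OT-2 was lowest and wild-type 1 to 3 highest, with no overlap of the 3 groups. The changes were -2.16 ± 0.22 (SE; limma, adjusted p = 1.58e-04) and -1.13 (adjusted p = 0.00308), and the wild-type sets themselves differed (adjusted p = 0.00259). A130050O07Rik and A130014H13Rik, transcripts without a known role, moved in the same order, by -2.83 and -1.15 and by -2.71 and -1.14.

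Of 25 named genes of post-selection maturation, 9 rose (36.0%, beside 17.1% of all named genes), 1 fell (4.0%, beside 22.4%) and 15 did not hold. Their medians were 0.61 and 0.21, beside 0.0 and -0.23 over all named genes. Zbtb7b, the transcription factor that fixes the CD4 lineage, read 6.14, 6.15 and 6.11 in wild-type 1 to 3, 6.16, 6.12 and 6.24 in wild-type 4 to 6, and 6.78, 6.90 and 7.08 in OT-2. The 6 wild-type values were nearly equal and the OT-2 values all higher, by 0.78 ± 0.09 (SE; limma, adjusted p = 2.36e-04) and 0.74 (adjusted p = 2.8e-04). Gata3, needed for the same lineage, rose by 0.48 and 0.50, and Tox, a nuclear factor of selected cells, by 0.62 and 0.58. These 3 changes were close to equal against both sets.

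The surface genes of this list rose less evenly. Ms4a4b, whose product lies in the membrane of T cells, rose by 2.37 and 1.19, and Gpr65, a proton-sensing receptor, by 2.42 and 1.15. Cd53, a tetraspanin, rose by 2.46 and 1.05. Ccr4, a chemokine receptor that appears upon selection, read 8.36, 8.62 and 8.26, then 8.96, 9.13 and 9.32 in the wild-type sets, and 9.92, 9.94 and 10.29 in OT-2. The groups did not overlap, and the changes were 1.64 and 0.92. Cd200 rose by 0.67 and 0.93 and Il6ra, a cytokine receptor chain, by 0.51 and 0.47. Slamf1, a receptor of the SLAM family, fell by 0.54 and 0.83 and did not hold without OT-2 array 2. Ccr7, the receptor that guides selected cells to the medulla, was higher than wild-type 1 to 3 by 0.90 (limma, adjusted p = 0.00235) and differed from wild-type 4 to 6 by 0.08 (adjusted p = 0.71), so it did not hold. Ms4a6b changed by 1.46 and -0.10. Of the 4 named markers of mature single-positive cells, Zbtb7b rose (25%, beside 17.1% of all named genes) and 3 did not hold, Ccr7 and Cd44 among them.

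Few genes of the list induced by T cell receptor signals held. Of 28 named members, 4 rose and 4 fell (14.3% each), shares below the 17.1% and 22.4% over all named genes, and 20 did not hold. The medians were 0.05 and -0.25, beside 0.0 and -0.23 over all named genes. Besides Il2ra, the rises were Btla, Cd5 and Id3. Btla, an inhibitory receptor, read 6.46, 6.18 and 6.23 in wild-type 1 to 3, 6.18, 6.72 and 6.72 in wild-type 4 to 6, and 8.37, 8.38 and 8.42 in OT-2. The OT-2 arrays were nearly equal and far above wild type, by 2.10 ± 0.14 (SE; limma, adjusted p = 4.15e-05) and 1.85 (adjusted p = 8.17e-05).

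Cd5, whose surface level is known to follow the strength of receptor signals, read 10.31, 10.22 and 10.49 in wild-type 1 to 3, 10.85, 11.04 and 10.99 in wild-type 4 to 6, and 11.37, 11.39 and 11.63 in OT-2. The groups did not overlap and the rise was 1.12 and 0.50. Id3, an inhibitor of E proteins that is induced at selection, rose by 0.41 and 0.39.

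The falls in the same list were Nr4a1, Nr4a3, Tnfrsf9 and Tnfrsf4. Nr4a1, the immediate early nuclear receptor also called Nur77, read 8.86, 9.12 and 9.12 in wild-type 1 to 3, 9.37, 9.73 and 9.57 in wild-type 4 to 6, and 8.43, 8.45 and 8.52 in OT-2. All OT-2 values were lower, with changes of -0.56 (limma, adjusted p = 0.00341) and -1.09 (adjusted p = 1.48e-04). Nr4a3, of the same family, read 6.39 in each array of wild-type 1 to 3, 6.23, 6.56 and 6.34 in wild-type 4 to 6, and 5.37, 5.40 and 5.62 in OT-2, and changed by -0.93 and -0.91. Both nuclear receptors held with each of the 9 arrays left out in turn. Tnfrsf4 and Tnfrsf9, costimulatory receptors, fell by 0.49 and 0.51 and by 0.37 and 0.64, and neither held without OT-2 array 1. Tnfrsf9 was also lost without OT-2 array 2 or wild-type array 3, and Tnfrsf4 without OT-2 array 3. The list had 2 falls without OT-2 array 1, 3 without OT-2 array 2 or wild-type array 3, and 5 without OT-2 array 3. In the peptide-injected OT-2 arrays, harvested 3 hours after agonist, the mean of Nr4a1 was 11.8 and that of Nr4a3 was 9.35.

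Other early response genes did not hold. Egr1 changed by -0.02 and -0.46 and Egr2 by -0.22 and -0.76, both transcription factors induced within the first hours of signalling. Cd69, a surface marker of signalled thymocytes, changed by 0.75 and -0.25. Dusp4, a phosphatase that limits MAP kinases, fell by 0.87 and 0.93. It was the only held change among 7 named genes of MAP kinase feedback (14.3%, beside 22.4% of all named genes that fell).

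**Figure D4:**
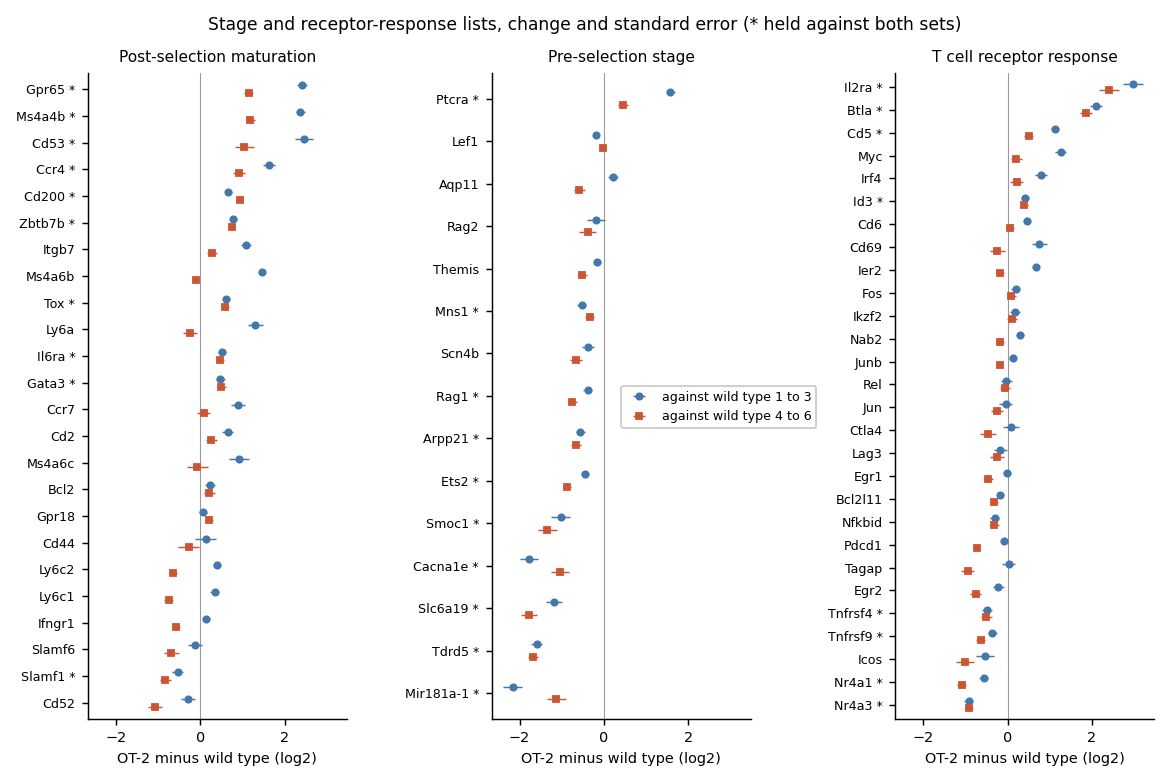
OT-2 change in log2 RMA signal (horizontal axes) of the members reported here of 3 lists, with circles for the comparison with wild-type 1 to 3, squares for wild-type 4 to 6 and bars for the SE (3 arrays per group); an asterisk marks a change that held. Most post-selection genes that held are higher, most pre-selection genes that held are lower, and the receptor-response list holds 4 rises and 4 falls.

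Of 11 components of the receptor signalling machinery, 4 fell (36.4%, beside 22.4% of all named genes), 1 rose (9.09%, beside 17.1%) and 6 did not hold. After quantile normalization 2 fell and 2 rose. The falls were Cd4 and 3 genes of proximal signalling. Cbl, a ubiquitin ligase that restrains signalling, fell by 1.07 and 0.57, Plcg1, the phospholipase that relays it, by 0.69 and 0.46, and Pag1, a membrane adaptor, by 0.68 and 0.76. Cbl and Plcg1 were lost after quantile normalization. Ptpn6, an inhibitory phosphatase, rose by 0.75 and 0.22 and was lost without OT-2 array 1, 2 or 3, without wild-type array 4, 5 or 6, and on arrays centred on their medians. Of 9 inhibitory receptors and negative tuners, Btla, Cd5 and Cd200 rose (33.3%, beside 17.1% of all named genes) and 0 fell.

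The interferon response was the list with the most held members. Of its 33 named effectors and sensors, 28 rose and 0 fell, beside 17.1% of all named genes that rose. All 33 are in the authors' OT-2 table, so neither their direction nor their shares beside all named genes are independent evidence. Of the 528 tested probe sets which that table lists as higher, 366 held in that direction. All 33 interferon genes were higher than both wild-type sets, with medians of 0.94 and 0.77. In 31 of them the OT-2 arrays lay above all 6 wild-type arrays, beside 20.8% of all named genes. The count of rises was 26 without OT-2 array 3 and ranged from 22 to 29 over the 9 fits that left out an array. With arrays centred on their medians it was 22.

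These genes are known to be switched on through the interferon-stimulated response element. That element was searched for as GAAA, any 2 bases and GAAA on both strands, overlapping matches included, in the 250 bases before the start of each gene in RefSeq (GRCm38.p6). It was found in 15 of 25 interferon list members that rose and have a promoter window (60.0%) and in 1 of the 4 with a window that did not hold (25.0%). Another 14 named members had no window and were not searched. Among all genes with a window it was found in 936 of 27025 (3.46%), and among named genes in 75 of 1597 (4.7%). The lists were drawn up as genes of the interferon response, so their share with the element describes the lists and not the OT-2 change. The 4 that did not hold are too few for a comparison. The stretches below surround the matches, in capitals, of 5 genes that rose, and each is written 5′ to 3′ on the strand of its gene. In Ifit1 and Trim30d the capitals are the reverse complement of the element.
Ifit1, chr19:34640755-34640843, plus strand: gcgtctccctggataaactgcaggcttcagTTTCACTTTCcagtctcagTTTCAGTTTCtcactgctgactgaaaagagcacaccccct
Isg15, chr4:156200845-156200926, minus strand: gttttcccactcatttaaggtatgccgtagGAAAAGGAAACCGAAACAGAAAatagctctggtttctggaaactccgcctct
Trim30d, chr7:104507851-104507920, minus strand: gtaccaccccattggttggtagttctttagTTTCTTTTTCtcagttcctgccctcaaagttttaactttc
Irgm1, chr11:48871421-48871480, minus strand: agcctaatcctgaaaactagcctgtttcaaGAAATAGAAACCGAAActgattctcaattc
Tgtp1, chr11:48992284-48992353, minus strand: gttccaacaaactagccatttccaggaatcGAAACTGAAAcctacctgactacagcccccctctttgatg
Isg15 holds 3 overlapping matches and Irgm1 2, Ifit1 holds 2 separate ones, and Trim30d and Tgtp1 hold 1 each. A match describes these letters and not binding.

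Ifit1, which binds foreign RNA, read 5.04, 5.47 and 4.79 in wild-type 1 to 3, 5.51, 5.80 and 5.98 in wild-type 4 to 6, and 7.58, 7.61 and 7.17 in OT-2. Its OT-2 values lay above all others, by 2.35 ± 0.19 (SE; limma, adjusted p = 5.91e-05) and 1.69 (adjusted p = 2.14e-04). Isg15, the ubiquitin-like modifier, read 5.32, 5.45 and 5.51, then 5.68, 5.55 and 5.74 in the wild-type sets, and 6.75, 6.79 and 6.54 in OT-2. It rose by 1.27 and 1.03, and its OT-2 arrays did not overlap with wild type. Rtp4 rose by 2.24 and 1.61, and Trim30d, a tripartite motif gene, by 1.91 and 1.64. Irf7, the transcription factor that amplifies the response, rose by 1.16 and 1.07.

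In 24 of the 33 genes OT-2 array 3 was the lowest of the 3 OT-2 arrays, as in Ifit1, Rtp4, Trim30d, Isg15 and Irf7. The 5 that did not hold were Samd9l, Ifi209, Oas2, Cmpk2 and Ifi27. Samd9l differed by 1.94 from wild-type 1 to 3 and by 0.50 from wild-type 4 to 6 (limma, adjusted p = 0.0798). Oas2 differed by 0.17 and 0.81, and was the only one of the 5 that passed against wild-type 4 to 6.

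Of 10 named interferon-inducible GTPases, which act against pathogens inside cells, 6 rose (60.0%, beside 17.1% of all named genes), 0 fell and 4 did not hold. Tgtp1, of the immunity-related GTPases, read 6.73, 7.03 and 6.68 in wild-type 1 to 3, 7.69, 7.54 and 7.70 in wild-type 4 to 6, and 9.12, 9.07 and 8.59 in OT-2. The groups did not overlap and the changes were 2.11 and 1.28. Iigp1 and Irgm1, of the same family, rose by 1.76 and 1.59 and by 1.45 and 1.07. Among the guanylate-binding proteins Gbp2, Gbp7 and Gbp9 rose, by 1.35 and 0.48, by 0.76 and 0.55 and by 0.84 and 0.52. Gbp4 changed by -0.22 and -0.73 and Gbp8 by -0.24 and -0.71, and without OT-2 array 3 there were 2 falls among the GTPases.

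**Figure D5:**
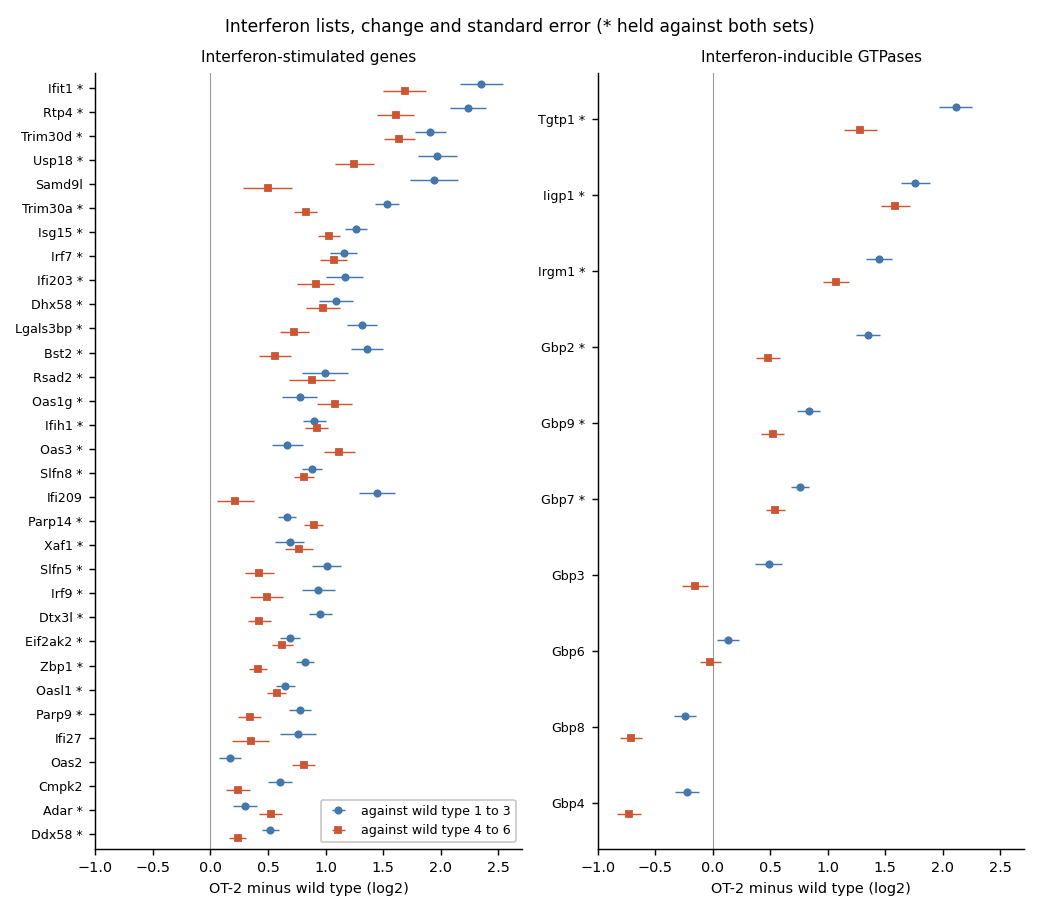
OT-2 change in log2 RMA signal (horizontal axes) of interferon-stimulated genes (left) and 10 interferon-inducible GTPases (right), with circles for the comparison with wild-type 1 to 3, squares for wild-type 4 to 6 and bars for the SE (3 arrays per group); an asterisk marks a change that held. All genes drawn on the left lie above 0 in both comparisons, and on the right 6 of 10 held.

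Antigen presentation genes of class I are also known to be induced by interferon. Of 12 named Ly6 and class I genes, 5 rose (41.7%, beside 17.1% of all named genes), 0 fell and 7 did not hold, 3 of them with opposite signs against the wild-type sets. The medians were 0.63 and 0.20, and the 5 held with any array left out. H2-T22, a non-classical class I gene, read 9.41, 9.43 and 9.58 in wild-type 1 to 3, 10.03, 9.89 and 9.99 in wild-type 4 to 6, and 10.52, 10.52 and 10.41 in OT-2. It rose by 1.01 and 0.51, without overlap. H2-T10, H2-Q2 and H2-Q1 rose by 0.92 and 0.68, 1.12 and 0.52, and 0.58 and 0.44. Nlrc5, the transactivator of class I genes, rose by 0.46 and 0.79. Near-identical class I genes may share probes, so their single values are uncertain.

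Socs1, a feedback inhibitor of cytokine and interferon signalling, went down. It read 9.40, 9.04 and 9.29 in wild-type 1 to 3, 9.39, 9.16 and 9.55 in wild-type 4 to 6, and 7.89, 7.85 and 8.05 in OT-2. The wild-type sets overlapped and the OT-2 arrays were all lower. The fall was -1.31 ± 0.12 (SE; limma, adjusted p = 1.03e-04) and -1.44 (adjusted p = 9.46e-05) and held in all 9 fits that each left out an array. Of 7 named genes of cytokine signal transduction, 1 rose and 1, Socs1, fell (14.3% each, beside 17.1% and 22.4% of all named genes).

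Of 13 named cytokine receptors, 5 rose (38.5%, beside 17.1% of all named genes), 4 fell (30.8%, beside 22.4%) and 4 did not hold, and these counts were the same with each array left out in turn. Besides Il2ra and Il6ra, the rises included Il17rb, a receptor for interleukin 25 (1.13 and 0.85), and Il18r1, a receptor for interleukin 18 (0.55 and 1.32). Il17ra, a receptor chain for interleukin 17, fell by 0.87 and 0.88. Of 11 migration genes, Ccr4, Gpr183 and Rgs16 rose (27.3%, beside 17.1% of all named genes) and Itga6 fell (9.09%, beside 22.4%). Gpr183, a receptor for oxysterols, rose by 1.13 and 1.16, and Rgs16, an inhibitor of G protein signals, by 0.34 and 0.77. Itga6, an integrin chain, fell by 0.56 and 0.49 and was lost after quantile normalization. Without OT-2 array 2, 2 migration genes rose and 0 fell.

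Of 14 named genes of sterol synthesis, 4 rose (Fdft1, Mvd, Nsdhl and Fdps) and 0 fell, with medians of 0.46 and 0.15. The share that rose was 28.6%, beside 17.1% of all named genes. Fdft1, squalene synthase, rose by 0.93 and 0.56, Mvd by 0.58 and 0.50 and Nsdhl by 0.51 and 0.50. Fdps rose by 0.49 and 0.19 and did not hold on centred arrays or without any of the OT-2 arrays or wild-type arrays 4 to 6, which left 3 rises in the list. Between 3 and 6 of the genes rose with an array left out, the 6 without wild-type array 1.

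Cell cycle genes were lower or did not hold. Of 35 mitotic genes 5 fell and 0 rose, with medians of -0.18 and -0.44, a share below the 22.4% of all named genes that fell. Cenpf, a kinetochore protein, fell by 0.78 and 0.34, and Knl1 by 0.62 and 0.54. Both were lost after quantile normalization and without OT-2 array 2 or wild-type array 5. Cenpf was also lost without OT-2 array 1 or wild-type array 4. The count of mitotic falls depended on single arrays: it was 0 without OT-2 array 2, 1 without OT-2 array 1 or wild-type array 5, 2 without wild-type array 4, 3 without OT-2 array 3 or wild-type array 6, and 10 without wild-type array 3. Of 23 S phase genes E2f2 and E2f1 fell, by 0.98 and 0.61 and by 0.49 and 0.62, and 0 rose. That share of falls, 8.7%, was also below the 22.4% of all named genes. E2f2 was lost after quantile normalization, and E2f1 without OT-2 array 2 or 3.

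Few genes held in the remaining lists. Among 12 genes of cell death, Birc2 fell by 0.28 and 0.78 and Pim1 by 0.38 and 0.68. These were 16.7% of the list, beside 22.4% of all named genes that fell. Birc2 was lost without any of the OT-2 arrays or wild-type array 1, 4 or 5, and Pim1 without any array other than wild-type array 2. Among 11 genes of the NF-kB pathway, the inhibitor Nfkbie fell, by 0.30 and 0.64 (9.09% of the list, beside 22.4%). Nfkbie was lost without OT-2 array 1 or 2, wild-type array 1 or 3, or any of wild-type arrays 4 to 6. Besides the 2 receptors above, Traf4 fell among 6 TNF family genes (-0.53 and -0.58), and Tnfsf10, the death ligand TRAIL, rose by 0.84 and 0.52. The falls were 50% of this list (beside 22.4%) and the rise 16.7% (beside 17.1% of all named genes). Of 11 solute carriers, 3 fell (27.3%, beside 22.4% of all named genes): Slc6a19, Slc16a5 (-0.50 and -0.99) and Slc29a1 (-0.37 and -0.69). The last was lost whenever an array other than wild-type array 2 was left out. Of 4 regulatory T cell markers Il2ra rose and Tnfrsf4 fell (25% each, beside 17.1% and 22.4% of all named genes). The 4 named glucocorticoid-responsive genes and Gimap4 did not hold. Fkbp5, a glucocorticoid target, changed by 0.55 and 0.03, and Pik3ip1 by -0.21 and -0.68.

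Hdac7, the deacetylase after which the series is named, read 11.42, 11.01 and 11.48 in wild-type 1 to 3, 10.87, 10.83 and 10.83 in wild-type 4 to 6, and 10.64, 10.68 and 10.60 in OT-2. The OT-2 values were the lowest, close under wild-type 4 to 6. The change was -0.66 (limma, adjusted p = 0.00209) and -0.20 (adjusted p = 0.186), and did not hold. It held on centred arrays, with -0.64 and -0.35 (limma, larger adjusted p = 0.0258), in separate fits (0.0235) and without wild-type array 2 (0.0324). After quantile normalization the changes were -0.86 and 0.12 (larger adjusted p = 0.526), the second with its sign turned. Hdac5, of the same class, rose by 0.37 and 0.48, and was lost without OT-2 array 1, 2 or 3 or wild-type array 2.

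The remaining genes with the largest held changes were in none of the lists used above. The lists do not hold every gene of their kind, so a gene given here may still belong to 1 of those groups. Among the rises, Ddx60, a helicase, read 5.48, 5.89 and 6.04, then 5.72, 5.79 and 5.83 in the wild-type sets, and 7.39, 7.32 and 7.36 in OT-2, and rose by 1.56 and 1.58. Its wild-type sets overlapped and its OT-2 arrays lay apart from them. Bst1, an ectoenzyme related to CD38, rose by 1.88 and 1.44. Gm4759 and Gm8995, predicted genes, rose by 1.96 and 1.93 and by 1.65 and 1.59.

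Among the falls, Dgke, a diacylglycerol kinase, read 10.36, 10.26 and 10.30, then 10.27, 10.29 and 10.25 in wild type, and 8.89, 8.85 and 9.37 in OT-2. The wild-type sets overlapped and all OT-2 values were lower, by -1.27 and -1.23. Smyd1, a methyltransferase gene, fell by 1.19 and 1.15, and H2bc3, a histone gene, by 1.38 and 1.20. Gramd3 read 7.16, 7.28 and 8.54 in OT-2 and fell by 1.20 and 1.74, or by 1.64 and 2.18 without OT-2 array 3.

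Some genes turned sign between the wild-type sets. Emp3, a membrane protein, read 9.84, 9.98 and 9.78 in wild-type 1 to 3, 11.39, 11.21 and 11.36 in wild-type 4 to 6, and 10.86, 10.92 and 10.87 in OT-2. The OT-2 values lay between the sets, 1.02 above the first (limma, adjusted p = 6.9e-05) and -0.44 against the second (adjusted p = 0.00287). Cbx3, a chromatin protein, changed by 0.90 and -0.66, Gemin6, of the SMN complex, by 1.10 and -0.40, and Id2, an inhibitor of E proteins, by 0.74 and -0.83. C130021O09Rik, Gm7246 and Trappc2 passed against 1 set with the opposite sign against the other. For such genes the direction of an OT-2 change depends on which wild-type arrays serve as controls.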

How the data were processed

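RNA of 21 samples was measured, and 9 arrays were used. Per the submitters' processing notes, the authors made the log2 values with RMA in Affymetrix Expression Console, in versions not given in the sources used here. Per the deposited readme, the authors' tables hold a linear ratio (fold change) of OT-2 over wild type made with SAM. Rows from probe set 10344614 on were kept: 28944 of 35556, minus 21 weaker probe sets of genes with several, leaving 28923. Names came from the authors' tables (2111 rows with 1 symbol, 26812 without). One limma 3.58.1 model (lmFit and eBayes, R 4.3.3) had a coefficient for OT-2 and for each wild-type set, tested two-sided with Benjamini-Hochberg adjustment over all rows at 0.05. The method was tested on simulated data. The number of arrays limits the precision. Summaries and plots came from python 3.11.15, pandas 2.3.3 and matplotlib 3.10.9.

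Named genes were the 12 largest rises and 12 largest falls that held, with arrays apart and the higher mean above 6.15; up to 5 held members of each of 33 lists, or up to 2 others where none held; up to 4 genes of each kind that turned sign; up to 6 receptor segments; and Hdac7 and Hdac5. The other genes given (Ets2, Smoc1, Mns1, Cd53, Slamf1, Tox, Gata3, Ccr7, Cd44, Id3, Egr1, Egr2, Cd69, Cd8b1, Cd79b, Gzma, Cldn4, Gbp2, Gbp4, Gbp8, Trgv3, those of the closing section and the interferon genes that did not hold) were chosen after their values were seen. Some genes that the rule chose are not reported here. The members and lists were chosen with earlier results of these data known. Alternatives were other scalings, separate fits, filters, thresholds, a replicate block and leaving out each array. The deltaP, knockout and VP16 arrays were not used here.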

Additional observations from a re-analysis of the deposited data

How the results depend on the processing

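The count of changes that held stayed within 1.5 times of 2229 with separate fits (2091), quantile normalization (2219), median centring (2298), an intensity trend (2280), dim probe sets left out (1683) and, added after seeing the data, OT-2 arrays outside the range of all wild-type arrays (2163). These were not all the same probe sets. Of the 2229, 1793 also held with separate fits, 1371 after quantile normalization and 1661 after centring. The number was 2167 with an intensity trend and 1522 with dim probe sets left out. The count that held was 668 with all 6 wild-type arrays as 1 group, 855 at an adjusted p under 0.01 and, added after seeing the data, 86 with at least 2-fold, each by construction a narrower or different test. With 1 array left out it ranged from 1291 to 2367. Against wild-type 1 to 3 that range was 6794 to 10257, and against wild-type 4 to 6 it was 8861 to 13611. Against wild-type 4 to 6 the count of 12378 was 7353 after quantile normalization and 6857 with dim probe sets left out, the latter from fewer genes tested; the cause of the former was not tested. Centring moved the median change against wild-type 4 to 6 from 0.04 to -0.11 and the split from 6969 higher and 5409 lower to 3832 and 9163. Numbers shared by OT-2 and wild-type arrays 1 to 3 did not mark pairs (correlations of deviations 0.14, -0.005 and -0.11), and a replicate block on them gave 6569 for wild-type 1 to 3 and 1568 held. Of 92 named genes that held, 66 held in every alternative fitted to them and 0 reversed in any; 9 were lost after quantile normalization, 8 after centring and 11 without OT-2 array 3.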

Other observations

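Several genes outside the lists described above also held at 2-fold or more, and they were chosen after their values were seen. P2rx7, an ATP-gated channel, rose by 1.08 and 1.39, Nrp1, a receptor for semaphorins, by 1.40 and 1.24 and Cysltr2, a leukotriene receptor, by 1.58 and 1.27. Gfra1, a coreceptor for glial cell line-derived neurotrophic factor, rose by 1.74 and 1.34 and Hyou1, a chaperone of the endoplasmic reticulum, by 1.19 and 1.22. Sema7a, a semaphorin, fell by 1.02 and 1.56, Kremen1, an inhibitor of Wnt signalling, by 1.09 and 1.14 and Neto2 by 1.36 and 1.05.

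Gamma chain probe sets were high in OT-2 array 3. Trgv3 read 8.43, 8.43 and 9.47 in OT-2, 7.22, 6.53 and 6.46 in wild-type 1 to 3 and 8.0, 8.66 and 9.06 in wild-type 4 to 6. It differed by 2.04 from the first wild-type set (limma, adjusted p = 0.00148) and by 0.20 from the second (adjusted p = 0.649).

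Exactly equal values in a pair of OT-2 arrays were found in 2105 to 2244 of 28923 probe sets (7.28% to 7.76%), against 302 to 328 for pairs of wild-type 1 to 3 and 12 to 22 for pairs of wild-type 4 to 6.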
